A study of Anethum foeniculum with 6 samples.

Results

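In the leaves of fennel, an aromatic herb of the carrot family, 58 genes had one main contig in every library at 400 ppm CO2 and a different one in every library at 800 ppm. The contigs are transcript sequences that the authors assembled without a genome, and a Trinity gene is a set of contigs that the assembler grouped because they share sequence. The 58 members were chosen by a deposited value called the share below, which is the percentage of a gene's TPM found on each contig. TPM is an expression level corrected for contig length and library size. A gene could be chosen when it had 2 to 7 contigs and a TPM of at least 5, summed over its contigs, in every library. Of the 27955 Trinity genes, 9209 had 2 or more contigs, 6066 met these conditions, and the 58 members were 0.956% of these 6066. The shares therefore chose the members and are given as a description, without a test.

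The libraries came from leaves of wild-type fennel after 5 weeks at 400 ppm CO2 (3 libraries) or at 800 ppm CO2 (3 libraries), grown in hydroponics. The sample titles mark the 3 libraries of each group as biological replicates. CO2 was supplied to each greenhouse, and the study describes air temperature, humidity and nutrient solution that also differed between the CO2 conditions, so CO2 and the rest of the greenhouse environment cannot be told apart. The libraries held between 13118825 and 19841835 estimated reads on 45273 contigs, and no library repeated another. The label of the tissue was not checked against marker genes, because the tables analysed here carry assembly identifiers without gene names. For the same reason no role is given to any member.

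One plant gene can give rise to several transcript forms, through alternative splicing, alternative start sites and alternative ends. A change in which form prevails can alter the protein made or the stability of the message without a change in the total output of the gene. An assembler also places alleles and close gene copies in 1 group when their sequences overlap, so the contigs of a Trinity gene may be transcript forms, alleles or copies. These possibilities were not tested here.

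Among the 6066 genes that could be chosen, 5133 (84.6%) kept 1 main contig in all 6 libraries. A further 875 genes (14.4%) had another pattern, in which the main contig differed between libraries of the same group or 2 contigs were tied. Single libraries stood apart in similar numbers of genes. The number of genes in which 1 library alone had another main contig was 48, 74 and 61 for the 400 ppm libraries (replicates 1 to 3) and 70, 67 and 75 for the 800 ppm libraries.

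**Figure D1:**
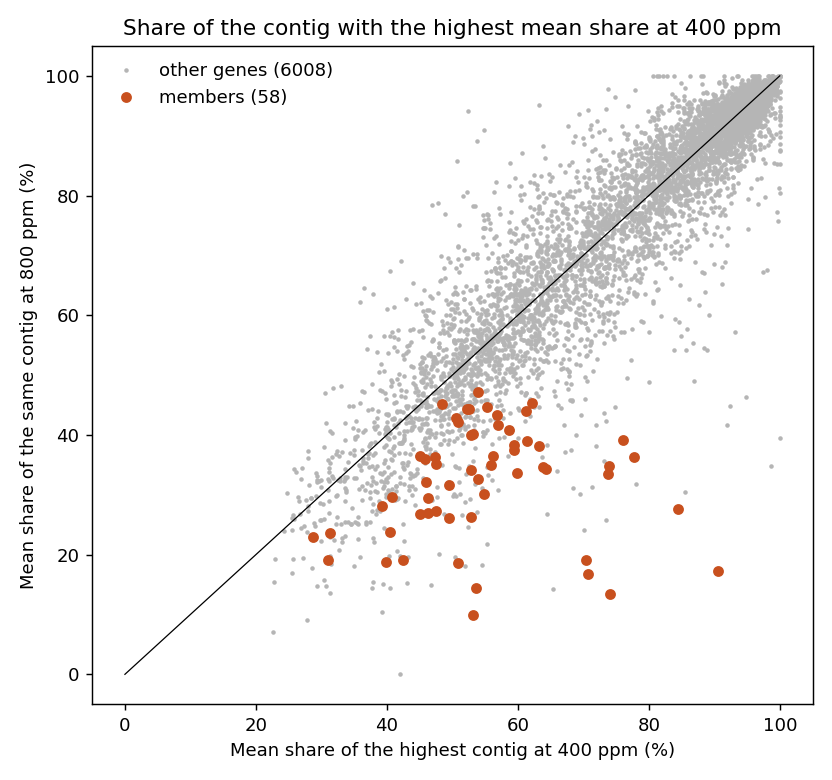
Mean share (percent of the gene's TPM) at 400 ppm (x axis) and at 800 ppm (y axis) of the contig with the highest mean share at 400 ppm, for the 58 members (large points) and the other 6008 genes that could be chosen (small points). The line marks equal shares, and the members lie below it, with shares between 9.98% and 47.1% at 800 ppm. The rule forces this position in members with 2 contigs, and in the others it also chose by these shares.

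The size of the exchange was taken as the mean of the fall of the 400 ppm main contig and the rise of the 800 ppm main contig, in percentage points of share. It ranged from 5.03 to 73.2 points over the members, with a median of 18.9. It was at least 10 points in 48 members, at least 20 in 25, at least 30 in 13, at least 40 in 9 and at least 50 in 4. For the median member, the 400 ppm main contig held 53.2% of the gene at 400 ppm and 34.2% at 800 ppm, and the 800 ppm main contig held 32.9% and 55.0%. The SD of a share among the 3 libraries of a group had a median between 3.45 and 3.99 points. A large shift was not restricted to the members. Of the 162 genes whose most rising and most falling contigs shifted by at least 20 points on average, 137 did not meet the rule.

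TRINITY_DN4620_c0_g1 had the largest exchange among the members, 73.2 points between its only 2 contigs. A contig is named here by the ending of its identifier. Contig i2 (2000 bases) held 71.6, 100 and 100% of the gene at 400 ppm (replicates 1 to 3) and 16.4, 21.0 and 14.5% at 800 ppm. Contig i1 (1891 bases) was listed at 0 reads in 400 ppm replicates 2 and 3, where the gene had 1783 and 1768 reads. By counting error alone, this allows i1 a share of these reads of up to 0.168 and 0.170%. The limit does not cover how the estimation divided reads that match both contigs. In 400 ppm replicate 1 contig i1 had 130 reads, and at 800 ppm 370, 252 and 195 reads. The groups did not overlap, and 400 ppm replicate 1 stood apart from the other libraries of its group. The TPM of i2 was 20.8, 69.3 and 94.4 at 400 ppm and 3.57, 2.89 and 1.65 at 800 ppm.

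In TRINITY_DN670_c0_g2 the short contig i3 (430 bases) gave way to the longer i5 (1239 bases), with an exchange of 60.6 points. The share of i5 was 32.9, 17.2 and 27.9% at 400 ppm and 82.4, 86.9 and 90.5% at 800 ppm. The TPM of i5 was 7.26, 2.91 and 8.18 at 400 ppm and 79.4, 59.3 and 68.0 at 800 ppm, an 11.3-fold higher mean. Contig i3 had between 19 and 49 reads in any library and a TPM of 14.8, 14.0 and 21.2 at 400 ppm against 17.0, 8.95 and 7.17 at 800 ppm. By estimated reads at 400 ppm, i3 had 31, 44 and 49 and i5 had 70, 43 and 88. The lead of i3 in 400 ppm replicates 1 and 3 was thus seen by TPM, which corrects for contig length, and not by reads. The levels of i5 did not overlap between the groups, whereas those of i3 did.

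TRINITY_DN1398_c0_g1 resembled it, with 2 contigs of near length (1592 and 1496 bases) and an exchange of 56.8 points. Contig i1 held 83.0, 92.3 and 78.0% at 400 ppm and 25.4, 28.8 and 28.8% at 800 ppm. The TPM of i2 was 4.32, 1.19 and 4.09 at 400 ppm and 71.4, 50.1 and 43.1 at 800 ppm, a mean 17.1-fold higher. The TPM of i1 was 21.0, 14.2 and 14.5 at 400 ppm and 24.3, 20.3 and 17.4 at 800 ppm. The shares exchanged while the level of i1 overlapped between the groups and the level of i2 did not.

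The fourth exchange above 50 points was that of TRINITY_DN6037_c0_g1, where the long contig i5 (4878 bases) was followed by i4 (1563 bases). The share of i5 was 73.6, 74.0 and 64.5% at 400 ppm and 18.4, 15.7 and 16.2% at 800 ppm. The TPM of i4 was 6.22, 5.60 and 9.54 at 400 ppm and 64.5, 66.1 and 58.3 at 800 ppm, 8.84-fold higher in the mean. The TPM of i5 was 18.8, 17.9 and 18.9 against 16.1, 13.6 and 12.4, so that neither contig overlapped between the groups on the TPM scale. On that scale most genes that could be chosen were lower at 800 ppm. By the edgeR fit described below, the log2 fold change of i5 was -0.04 (SE 0.11).

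**Figure D2:**
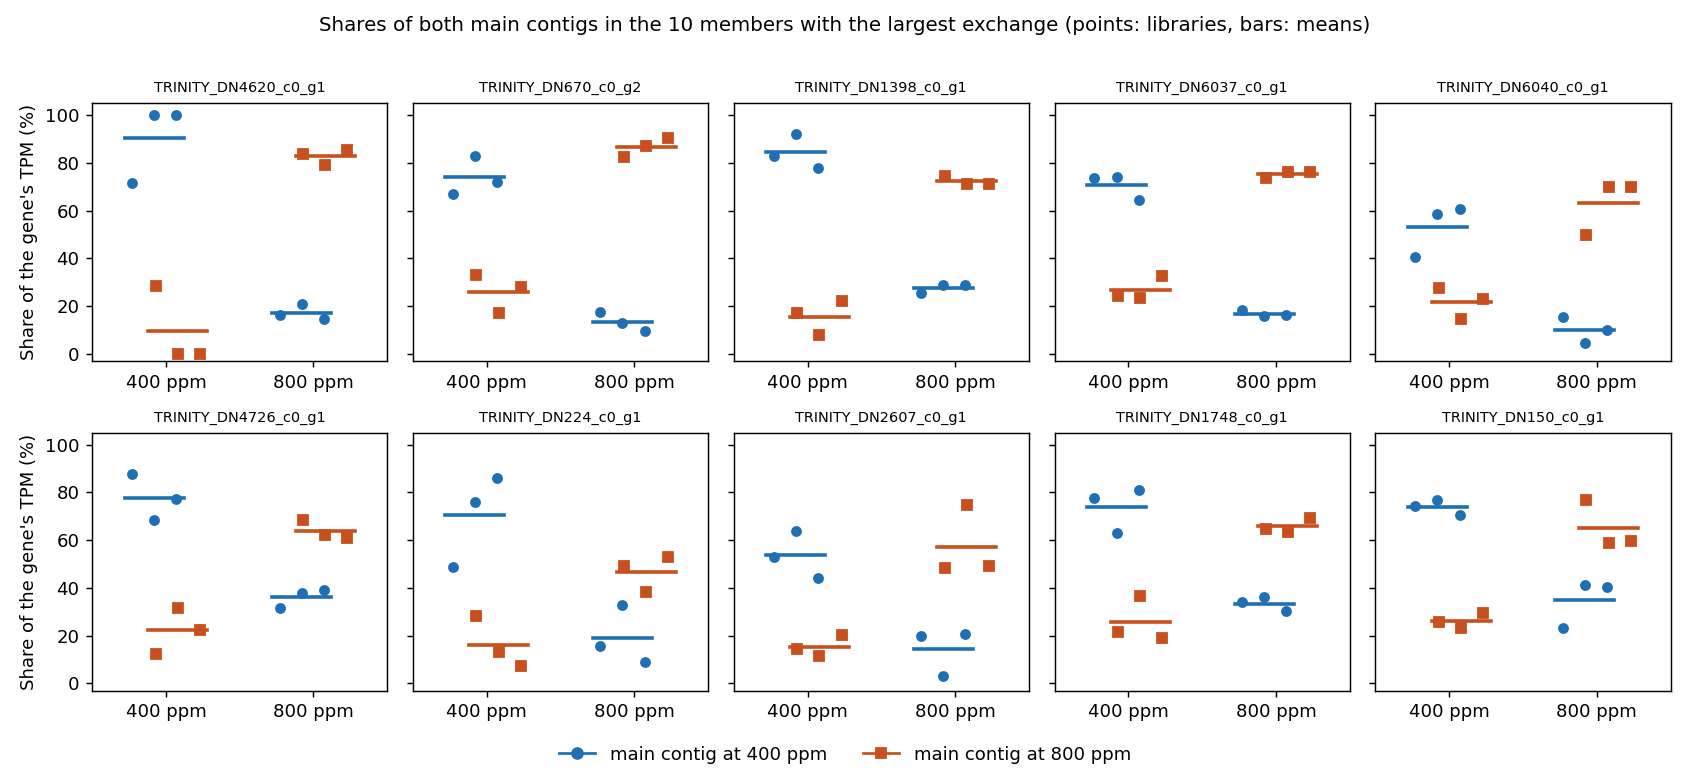
Share (percent of the gene's TPM, y axis) of the 400 ppm main contig (circles) and the 800 ppm main contig (squares) in each library of the 10 members with the largest exchange, by CO2 group (x axis), with bars for the means of 3 libraries. The main contig at 800 ppm exceeded the main contig at 400 ppm in all 800 ppm libraries of these members and in none of the 400 ppm libraries, which is the rule itself, and the spread within a group differed, from 1.42 points for TRINITY_DN6037_c0_g1 at 800 ppm to 19.3 points for TRINITY_DN224_c0_g1 at 400 ppm (SD of the 400 ppm main contig).

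The next exchanges lay between 39.0 and 42.3 points. In TRINITY_DN6040_c0_g1 the contigs i12 and i10 differed by 10 bases in length (2073 and 2083 bases). Contig i12 held 40.4, 58.5 and 60.6% at 400 ppm and 15.4, 4.51 and 10.1% at 800 ppm, and i10 held 27.5, 14.8 and 22.9% against 49.6, 70.0 and 70.0%. In both contigs replicate 1 of each group lay nearest to the other group.

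TRINITY_DN4726_c0_g1 had 2 contigs, i1 (2477 bases) with 87.6, 68.3 and 77.4% at 400 ppm and 31.7, 37.8 and 39.2% at 800 ppm, and i2 (1943 bases) with the remainder. In TRINITY_DN224_c0_g1, i1 (2052 bases) held 48.9, 76.1 and 86.2% at 400 ppm and 15.6, 32.9 and 9.03% at 800 ppm. The TPM of this contig was 147, 425 and 630.1 at 400 ppm and 19.0, 55.3 and 17.5 at 800 ppm, a mean 13.1-fold lower. The 800 ppm main contig of the same gene, i2 (1363 bases), had overlapping levels, with 85.0, 73.7 and 53.4 TPM at 400 ppm and 60, 64.1 and 102 TPM at 800 ppm. The exchange in TRINITY_DN224_c0_g1 thus went with a low level of its 400 ppm contig, unlike those of TRINITY_DN670_c0_g2 and TRINITY_DN1398_c0_g1.

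TRINITY_DN2607_c0_g1 had 7 contigs, and its main contigs were i3 (870 bases) and i10 (2347 bases). Contig i10 held 14.5, 11.3 and 20.5% at 400 ppm and 48.3, 74.6 and 49.0% at 800 ppm, where replicate 2 was the highest. TRINITY_DN1748_c0_g1 was one of the most abundant members. Its contig i1 (1349 bases) held 77.7, 62.8 and 81.0% at 400 ppm and 34.2, 36.0 and 30.2% at 800 ppm, and its i2 (1459 bases) 21.6, 36.4 and 18.9% against 64.5, 63.3 and 69.4%. In TRINITY_DN150_c0_g1, i5 (1418 bases) held 74.2, 76.9 and 70.6% at 400 ppm and 23.1, 41.2 and 40.2% at 800 ppm, and i3 (2364 bases) held the remainder. In all 3 genes the shares of both main contigs kept apart between the groups.

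The 5 most abundant members by mean summed TPM were TRINITY_DN396_c0_g1, TRINITY_DN1748_c0_g1, TRINITY_DN1639_c0_g1, TRINITY_DN1346_c0_g1 and TRINITY_DN449_c0_g2. TRINITY_DN396_c0_g1, with a mean of 2302 TPM, had one of the smaller exchanges, 6.82 points. Its contig i4 (1432 bases) held 53.3, 54.0 and 54.2% at 400 ppm and 48.6, 47.7 and 45.1% at 800 ppm, and i3 (1489 bases) held 46.3, 45.6 and 45.3% against 51.2, 52.1 and 54.7%. With at least 21095 reads on the gene in every library, the smallest lead of 2.62 points was still above the counting error. In TRINITY_DN1639_c0_g1, i2 (1270 bases) held 51.0, 49.2 and 58.2% at 400 ppm and 32.9, 36.3 and 33.4% at 800 ppm, and i1 (1043 bases) 41.1, 42.9 and 34.8% against 52.6, 51.2 and 52.3%.

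TRINITY_DN1346_c0_g1 divided its expression over 4 contigs, so that its main contig held at most 36.7%. The main contigs i2 (2773 bases) and i1 (2796 bases) held 31.2% ± 3.5 and 24.0% ± 0.46 at 400 ppm and 23.6% ± 3.2 and 34.7% ± 3.3 at 800 ppm (SD, n = 3). The main contigs of TRINITY_DN449_c0_g2, i1 and i2, were of equal length, 2539 bases each. Contig i1 held 44.7, 38.2 and 56.0% at 400 ppm and 22.3, 31.6 and 27.0% at 800 ppm, and i2 35.1, 30.5 and 29.4% against 49.9, 46.4 and 42.9%. Both contigs had a lower mean TPM at 800 ppm, i1 3.56-fold and i2 from between 145 and 180.2 TPM to between 95.2 and 139 TPM, so that the order of the shares exchanged between contigs of lower mean level.

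A main contig can lead by little. The smallest lead over the next contig in any of the 6 libraries ranged from 0.12 to 43.3 points over the members, with a median of 5.18. It was under 1 point in 5 members, under 5 points in 28 and at least 10 points in 14. The smallest lead lay in a 400 ppm library in 37 members and in an 800 ppm library in 21. To set the lead against the depth, the reads of the main and the next contig were compared with the division that equal TPM would give. The 95% Wilson interval, which covers counting error only, lay on the side of the main contig in 277 of the 348 pairs of member and library (79.6%). It did so in all 6 libraries for 23 members, among them 9 of the 10 with the largest exchange. The exception was TRINITY_DN6040_c0_g1, with 5 of 6.

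The members just inside the rule were TRINITY_DN1316_c0_g1, TRINITY_DN2778_c0_g1 and TRINITY_DN4232_c0_g2, each with 2 contigs. In TRINITY_DN1316_c0_g1, i3 (3290 bases) held 50.1, 50.7 and 50.8% at 400 ppm and 40.5, 44.6 and 43.5% at 800 ppm, so that its lead in 400 ppm replicate 1 was 0.12 points. In TRINITY_DN2778_c0_g1, i1 (1869 bases) held 50.2, 66.4 and 61.5% and then 35.7, 39.4 and 37.5%, with a smallest lead of 0.44 points. In TRINITY_DN4232_c0_g2, i1 (1088 bases) held 55.4, 62.9 and 50.3% and then 35.0, 30.8 and 43.8%, with a smallest lead of 0.68 points. At these 3 leads the 2 contigs were not distinguishable at the depth of the library.

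Just outside the rule, 199 genes had the exchange in 5 of the 6 libraries. The library that went against it was 400 ppm replicate 1, 2 and 3 in 41, 23 and 29 genes, and 800 ppm replicate 1, 2 and 3 in 18, 57 and 31 genes. Nearest to the rule was TRINITY_DN1657_c0_g1, whose contigs i1 and i2 were tied at 50% in 400 ppm replicate 1, while i1 held 22.2, 26.5 and 25% at 800 ppm. TRINITY_DN195_c0_g1 missed by 0.01 points and TRINITY_DN977_c0_g1 by 0.12 points, both in 800 ppm replicate 2. On the level condition, the nearest genes below the minimum of 5 TPM had 4.96 TPM (TRINITY_DN4090_c0_g1), 4.93 TPM (TRINITY_DN7156_c0_g1) and 4.81 TPM (TRINITY_DN295_c0_g1) in their lowest library. Without 400 ppm replicate 1, 800 ppm replicate 2 or 800 ppm replicate 3, the rule would choose 99, 116 and 91 genes, which include the 58 by construction.

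The shares of both main contigs did not overlap between the groups in 56 members. Over all 6066 genes, the contigs with the largest mean rise and fall did not overlap in 22.4%, and nothing is read from the difference because the rule used these shares. The 2 members with overlap were TRINITY_DN4231_c0_g1 and TRINITY_DN9447_c0_g1. In TRINITY_DN4231_c0_g1, with 6 contigs, the 800 ppm main contig i7 (3047 bases) held 29.0, 26.0 and 24.6% at 400 ppm and 35.9, 28.1 and 41.4% at 800 ppm. In TRINITY_DN9447_c0_g1, with 4 contigs, the 400 ppm main contig i1 (2455 bases) held 51.1, 41.4 and 45.1% at 400 ppm and 42.3, 32.0 and 33.5% at 800 ppm. Both met the rule because the order of the contigs within each library exchanged, although 1 of the main contigs kept a similar share in some libraries of both groups.

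Genes with more contigs have more ways to change their leading contig. Whether this bears on the numbers of members was not tested. Of the genes that could be chosen, members made up 18 of 3128 with 2 contigs (0.575%), 14 of 1458 with 3 contigs (0.960%) and 12 of 797 with 4 contigs (1.51%). With 5, 6 and 7 contigs they were 3 of 365 (0.822%), 9 of 216 (4.17%) and 2 of 102 (1.96%). The median exchange was 21.5 points with 2 contigs, 17.3 with 3 and 17.8 with 4 or more. The main contig held over 50% of the gene in every library in 25 members, namely all 18 with 2 contigs, 4 with 3 contigs and 3 with 4 or more. With 2 contigs this was fixed in advance, since the larger of 2 shares lies over 50%. In the other 33 the main contig held 50% or less in at least 1 library. The 58 members came from 58 different read clusters of the assembly, so that no 2 members shared one.

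The members held 209 contigs, of which 116 were main contigs and 93 were others. Most of the others moved little, and 74 of them shifted by under 5 points in mean share. Their summed share in members with over 2 contigs had a median of 15.8% at 400 ppm and 18.4% at 800 ppm. A shift of at least 10 points was found in 4 of them. Contig i6 of TRINITY_DN224_c0_g1 (4996 bases) had 21.6, 10.2 and 6.12% at 400 ppm and 33.0, 24.9 and 30.9% at 800 ppm, so that it moved with the 800 ppm main contig. In TRINITY_DN5465_c0_g1, i2 (1877 bases) had a mean of 13.2% at 400 ppm and 28.8% at 800 ppm. In TRINITY_DN33_c0_g1, i5 and i6, both of 1540 bases, had means of 23.5 and 21.8% at 400 ppm and of 9.64 and 8.94% at 800 ppm, and so moved with the main contig i4. The main contig i3 of TRINITY_DN33_c0_g1 (2332 bases) held 12.9, 5.90 and 12.2% at 400 ppm and 64.7, 42.5 and 56.9% at 800 ppm. In 56 members the contigs with the largest mean rise and fall were the main contigs themselves.

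The rule set no condition on contig length, but length enters the shares, because TPM divides the reads by it. The 800 ppm main contig was the longer one in 30 members (51.7%), the shorter one in 27 and of equal length in 1. Among the 6060 genes in which any share shifted, the contig with the largest rise at 800 ppm was longer than the one with the largest fall in 2846 (47.0%). The 2 main contigs differed by a median of 260 bases in the members and by up to 3535 bases, against a median of 350 bases for the most rising and most falling contigs of all these genes. The longer contig was at least 1.5 times as long as the shorter in 17 members (29.3%), a share near the 28.6% of all these genes. Of these 17, the 800 ppm main contig was the longer in 7 and the 400 ppm main contig in 10. At a ratio of at least 2 the 10 members divided into 5 and 5. The exchanges therefore had no common direction in length.

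**Figure D3:**
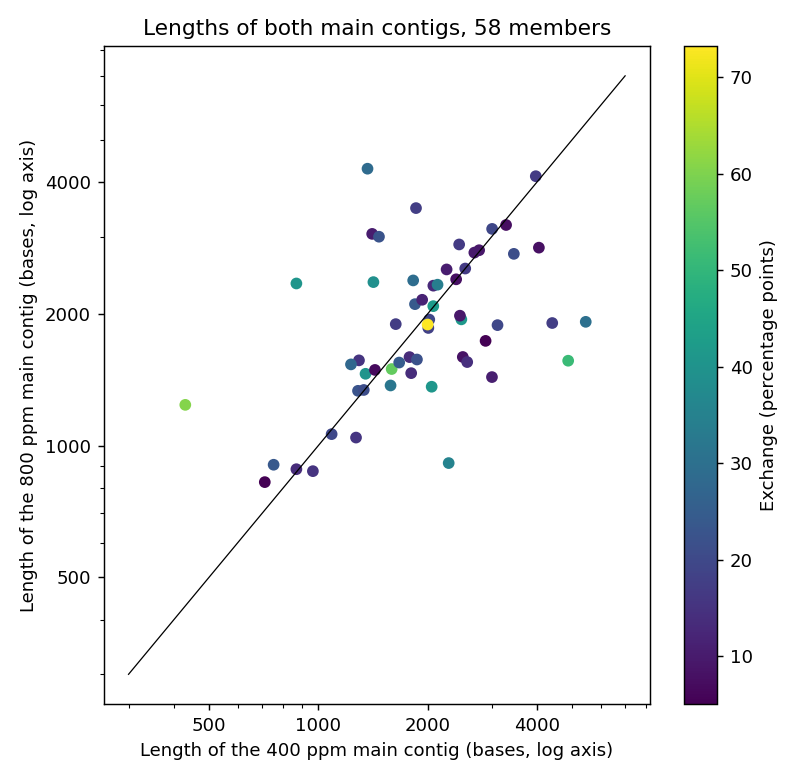
Length in bases of the 400 ppm main contig (x axis, log scale) and the 800 ppm main contig (y axis, log scale) in the 58 members, coloured by the size of the exchange in percentage points of share. The line marks equal length, with 30 members above it, 27 below and 1 on it, and members with a large exchange lie on both sides.

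The largest differences in length were those of TRINITY_DN5625_c0_g1 (5453 bases at 400 ppm and 1918 at 800 ppm), TRINITY_DN6037_c0_g1 (4878 and 1563) and TRINITY_DN1042_c2_g1 (1366 and 4294). In TRINITY_DN5625_c0_g1 the long contig i1 held 60, 68.0 and 64.7% at 400 ppm and 36.6, 38.8 and 27.4% at 800 ppm. In TRINITY_DN1042_c2_g1, which had 4 contigs, the long contig i1 held 20.7, 17.1 and 27.9% at 400 ppm and 59.1, 66.4 and 48.7% at 800 ppm. By share of TPM, the first gene thus moved toward its short contig and the second toward its long one. By estimated reads the long main contig was ahead of the short one in every library of both genes. In TRINITY_DN5625_c0_g1 at 800 ppm it had 3516, 1552 and 1670 reads against 1982, 793 and 1443. In TRINITY_DN1042_c2_g1 at 400 ppm it had 87, 220 and 225 reads against 44, 164 and 85. The change of lead between these contigs was thus seen by TPM and not by reads. At the other end, the main contigs differed by under 100 bases in 14 members, such as TRINITY_DN6040_c0_g1 with 10 bases and TRINITY_DN449_c0_g2 with 0.

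The share is computed from TPM, which divides the reads by contig length. When the main contig was instead taken by estimated reads, 61 genes met the rule and 30 of the 58 members were among them with the same pair of contigs. For the other members the order by reads was not the order by TPM in at least 1 library. TRINITY_DN670_c0_g2, TRINITY_DN5625_c0_g1 and TRINITY_DN1042_c2_g1 were among these other members.

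The estimation assigns reads that match several contigs in fractions, so a whole estimated count marks a contig to which no such fraction was assigned, within a tolerance of 0.005. In the main contigs of members 29.3% of the values were whole, against 13.5% for the 2 highest contigs of all genes that could be chosen. Both main contigs were whole in all 6 libraries in 9 members (15.5%), against 325 of the 6066 genes (5.36%). The 9 were TRINITY_DN1013_c0_g1, TRINITY_DN110_c1_g1, TRINITY_DN1398_c0_g1, TRINITY_DN150_c0_g1, TRINITY_DN2729_c1_g1, TRINITY_DN2778_c0_g1, TRINITY_DN4726_c0_g1, TRINITY_DN670_c0_g2 and TRINITY_DN698_c0_g1, with exchanges from 8.24 to 60.6 points. They were named after their values were seen. For the other members the share rests in part on how reads common to several contigs were divided.

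The levels of the main contigs were compared with edgeR's quasi-likelihood test on the rounded estimated counts of all 32380 contigs that passed the filter on low counts, adjusted after Benjamini-Hochberg, at an FDR of 0.05. A contig past this threshold is said to be called higher or lower at 800 ppm. These comparisons rest on the contrast that chose the members, so nothing is read from the counts. The 400 ppm main contig was called lower in 20 of 58 members (34.5%), beside 5.22% of all contigs, and called higher in 3. The 800 ppm main contig was called higher in 25 members (43.1%), beside 9.36% of all contigs, and called lower in 0. Opposite calls on both main contigs were found in 4 members. In 16 members the 400 ppm contig was called lower alone, in 18 the 800 ppm contig was called higher alone, in 3 both were called higher, and in 17 neither was called. The total of 48 called main contigs fell to 31, 18, 18, 25 and 24 without 400 ppm replicate 1, 2 or 3, 800 ppm replicate 1 and 800 ppm replicate 3, respectively.

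The 4 members with opposite calls were TRINITY_DN1321_c0_g1, TRINITY_DN150_c0_g1, TRINITY_DN1748_c0_g1 and TRINITY_DN6040_c0_g1. In TRINITY_DN6040_c0_g1 the log2 fold change was -1.96 (SE 0.43) for i12 and 2.01 (SE 0.43) for i10, with adjusted p of 0.0309 and 0.0281 by edgeR's quasi-likelihood test. In TRINITY_DN1748_c0_g1 it was -1.52 (SE 0.28) for i1 and 1.03 (SE 0.26) for i2. In TRINITY_DN150_c0_g1 it was -1.31 (SE 0.21) for i5 and 1.09 (SE 0.21) for i3, and in TRINITY_DN1321_c0_g1 -0.62 (SE 0.12) for i8 (1858 bases) and 0.86 (SE 0.14) for i5 (3490 bases). The rule chose these contigs by the same contrast, so their opposite directions are given as a description. None of the 4 gene sums was called.

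The fitted levels of the 400 ppm contig were lower and those of the 800 ppm contig higher at 800 ppm in 39 members, both were lower in 10 and both higher in 9. With the libraries scaled by their size alone, which shifts the median of all contigs to -0.28 on the log2 scale, these numbers were 34, 16 and 8. By mean TPM they were 33, 17 and 8. The 3 members in which both contigs were called higher were TRINITY_DN2313_c0_g1, TRINITY_DN396_c0_g1 and TRINITY_DN5625_c0_g1. In TRINITY_DN5625_c0_g1 the log2 fold change was 1.40 (SE 0.33) for i1 and 3.18 (SE 0.40) for i2, so that the whole gene rose and the short contig rose more. In TRINITY_DN396_c0_g1 the values were 0.86 (SE 0.14) and 1.26 (SE 0.15). In TRINITY_DN449_c0_g2 the 400 ppm contig was called lower at -1.47 (SE 0.18) while the other had -0.11 (SE 0.15).

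**Figure D4:**
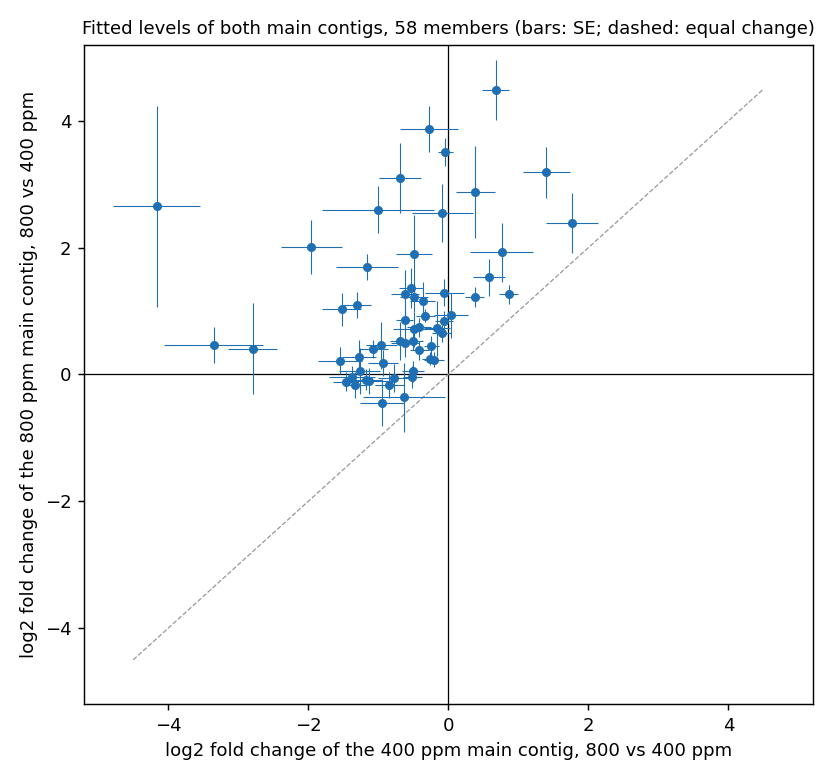
Fitted log2 fold change (800 against 400 ppm, edgeR) of the 400 ppm main contig (x axis) and the 800 ppm main contig (y axis) of the 58 members, with bars for the SE. The dashed line marks equal change, and the members lie in 3 sectors: 39 with the 400 ppm contig lower and the other higher, 10 with both lower and 9 with both higher.

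The sum of a gene's reads over its contigs was then compared in the same way, over 20328 genes. It is another measure than the share, but it comes from the same libraries and the same contrast. The gene sum was called higher at 800 ppm in 12 members (20.7%), beside 14.8% of all genes, and called lower in 5 (8.62%), beside 9.96% of all genes. Among the 6066 genes that could be chosen, 17.6% were called higher and 12.3% lower. The other 41 gene sums were not called, with log2 fold changes from -1.58 to 1.37, and 31 of the 58 members (53.4%) had an unadjusted p under 0.05, beside 39.2% of all genes and 44.4% of the 6066. With the libraries scaled by their size alone, 11 members were called higher and 16 lower, against 1955 and 5023 of all genes, and the fitted sign differed in 8 members. Without 400 ppm replicate 2 or without replicate 3, 7 members were called higher and 1 lower. Without 800 ppm replicate 1 and 800 ppm replicate 3, 2 and 3 were called lower.

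**Figure D5:**
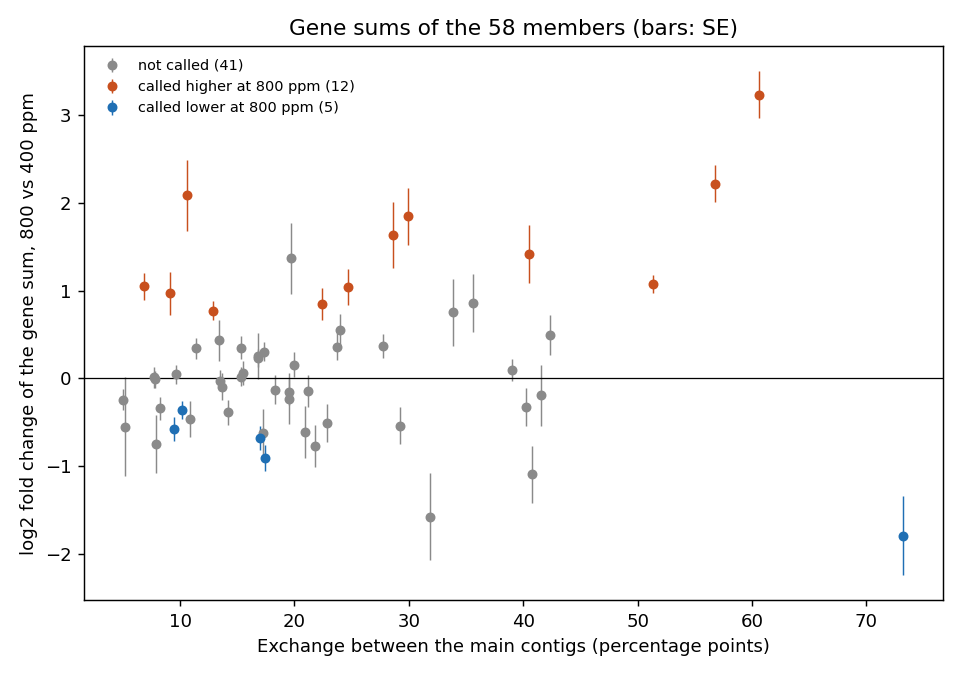
Fitted log2 fold change of the gene sum (800 against 400 ppm, y axis, bars for the SE) against the size of the exchange in percentage points of share (x axis) in the 58 members. Gene sums called higher (12), called lower (5) and not called (41) by edgeR at an FDR of 0.05 occurred at large and at small exchanges.

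Of the 4 members with an exchange of at least 50 points, 3 had a gene sum that was called higher, beside 14.8% of all genes. Nothing is read from this count, because it covers only 4 members. The gene sum of TRINITY_DN670_c0_g2 rose by 3.23 on the log2 scale (SE 0.27, adjusted p = 0.00189 by edgeR's quasi-likelihood test), with a summed TPM of 22.1, 16.9 and 29.4 at 400 ppm and 96.3, 68.2 and 75.1 at 800 ppm. In TRINITY_DN1398_c0_g1 it rose by 2.22 (SE 0.21, adjusted p = 0.00201, edgeR), with 25.3, 15.4 and 18.6 TPM at 400 ppm and 95.7, 70.4 and 60.4 TPM at 800 ppm. In TRINITY_DN6037_c0_g1 it rose by 1.08 (SE 0.10, adjusted p = 0.00203, edgeR), with 25.5, 24.1 and 29.4 TPM at 400 ppm and 87.6, 86.6 and 76.4 TPM at 800 ppm. In all 3 genes the summed levels of the groups were far apart. The 800 ppm main contig of TRINITY_DN6037_c0_g1 is the shorter one, and with an offset for effective length the log2 fold change was 2.0 in place of 1.08. For TRINITY_DN670_c0_g2, whose 800 ppm contig is longer, it was 2.14 in place of 3.23. Each of the 3 calls was kept with any 1 library left out.

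The fourth, TRINITY_DN4620_c0_g1, had a lower gene sum at 800 ppm, with a log2 fold change of -1.79 (SE 0.45, adjusted p = 0.0298, edgeR). Its summed TPM was 29.1, 69.3 and 94.4 at 400 ppm and 21.7, 13.8 and 11.4 at 800 ppm. The groups did not overlap, but 400 ppm replicate 1 lay close to the 800 ppm libraries. The adjusted p was 0.0872 without 400 ppm replicate 2, 0.0861 without 400 ppm replicate 3, 0.0627 without 800 ppm replicate 1, 0.0721 without 800 ppm replicate 2 and 0.0863 without 800 ppm replicate 3.

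Among the abundant members, TRINITY_DN396_c0_g1 rose by 1.05 on the log2 scale (SE 0.15, adjusted p = 0.00523, edgeR), from 1803, 1790.0 and 1678 TPM to 2571, 3093 and 2878 TPM. TRINITY_DN449_c0_g2 fell by 0.68 (SE 0.13, adjusted p = 0.0142, edgeR), from 513, 475 and 513 TPM to 279, 205 and 254 TPM. The libraries of each group kept together in both genes. The adjusted p of TRINITY_DN449_c0_g2 was 0.0501 without 400 ppm replicate 2 and 0.0554 without 400 ppm replicate 3. TRINITY_DN1346_c0_g1 rose by 0.97 (SE 0.25, adjusted p = 0.0325, edgeR), with 391, 422 and 343 TPM at 400 ppm and 872, 454 and 478 TPM at 800 ppm, where replicate 1 was the highest. Its adjusted p lay between 0.0682 and 0.107 without any 1 of the 400 ppm libraries, and it was 0.0724 with library size alone. TRINITY_DN1748_c0_g1 and TRINITY_DN1639_c0_g1 were not called, with log2 fold changes of -0.33 (SE 0.22) and 0.06 (SE 0.14), the second of which was -0.20 with library size alone and -0.0496 without 800 ppm replicate 1. These 2 genes exchanged 40.2 and 15.5 points between their contigs.

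TRINITY_DN3149_c0_g1, a member with 4 contigs, rose by 0.77 on the log2 scale (SE 0.11, adjusted p = 0.00499, edgeR), from 121, 101 and 122 TPM to 160.3, 152 and 142 TPM. Its 400 ppm main contig i6 (2074 bases) had 56.0, 51.7 and 54.3 TPM at 400 ppm and 54.0, 47.2 and 62.6 TPM at 800 ppm. Its 800 ppm main contig i2 (2320 bases) had 48.1, 36.1 and 51.2 TPM and then 77.7, 90.7 and 75.9 TPM. The level of i6 overlapped between the groups and that of i2 did not.

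TRINITY_DN5625_c0_g1 rose by 1.85 (SE 0.32, adjusted p = 0.0096, edgeR), with 31.7, 23.7 and 22.7 TPM at 400 ppm and 151, 55.2 and 97.5 TPM at 800 ppm. TRINITY_DN2607_c0_g1 and TRINITY_DN1042_c2_g1 were called higher at 1.42 (SE 0.33) and 1.63 (SE 0.38), with adjusted p of 0.0244 and 0.0236 (edgeR). Both gained a longer main contig at 800 ppm, and with the offset for effective length their adjusted p was 0.153 and 0.0708. Each of these calls was also lost in 4 of the 6 fits without 1 library, with adjusted p of up to 0.0814 and 0.0632. Their summed TPM overlapped between the groups, with 44.3, 19.0 and 21.8 against 37.9, 27.0 and 45.1 in TRINITY_DN2607_c0_g1, and 10.9, 21.9 and 18.9 against 26.2, 40 and 19.6 in TRINITY_DN1042_c2_g1. TRINITY_DN4595_c0_g1, whose 800 ppm main contig i1 (3002 bases) is longer than i3 (1469 bases), was likewise called higher at 0.85 (SE 0.18) but had an adjusted p of 0.0639 with the offset.

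Of the 10 largest exchanges, 4 came with a gene sum called higher, 1 with a gene sum called lower and 5 with a gene sum that was not called. Over all genes 14.8% were called higher and 9.96% lower, and nothing is read from so few members. TRINITY_DN6040_c0_g1 had 12.8, 7.92 and 13.3 TPM at 400 ppm and 12.5, 14.9 and 10.2 TPM at 800 ppm, with a log2 fold change of 0.49 (SE 0.23). TRINITY_DN4726_c0_g1 had 25.7, 10.1 and 11.7 TPM and then 11.6, 13.6 and 11 TPM, with -0.19 (SE 0.35), which was 0.31 without 400 ppm replicate 1. TRINITY_DN150_c0_g1 had 128, 111 and 141 TPM and then 91.4, 83.0 and 79.3 TPM, with 0.09 (SE 0.13), which was -0.17 with library size alone and -0.24 with the offset for effective length. In TRINITY_DN150_c0_g1 the TPM groups did not overlap while the fitted change in reads was near 0, and its 800 ppm main contig is the longer one. TRINITY_DN224_c0_g1 had 299.8, 559 and 731 TPM and then 122, 168 and 194 TPM, with -1.09 (SE 0.33, adjusted p = 0.0514, edgeR). Its call depended on the setting. The adjusted p by edgeR was 0.0259 without 400 ppm replicate 1 and 0.0371 with the offset for effective length. It was 0.0166 with a replicate block and 0.0161 with library size alone (edgeR), and 0.00536 with DESeq2. With RLE factors and with no filter it was 0.0529 and 0.0632 (edgeR). Without each other library in turn it lay between 0.0631 and 0.152 (edgeR).

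On the TPM scale the gene sums of most genes were lower at 800 ppm. The median log2 ratio of the mean TPM was -0.37 over the 6066 genes and -0.33 over the members, and the mean was lower in 73.4% of those genes and in 39 of the 58 members (67.2%). With the TMM factors of the fit the medians were -0.03 and 0.03. The median size of the fitted change, without its sign, was 0.50 in members and 0.36 in the 6066 genes. Members were spread over the range of levels, with mean summed TPM from 10.4 to 2302 and a median of 47.4, against a median of 29.3 for the genes that could be chosen, and 37 of 58 lay above that median. The lowest number of reads on a member in any library ranged from 87 (TRINITY_DN670_c0_g2) to 21095 (TRINITY_DN396_c0_g1), with a median of 500.

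The 38 members not named by the rule had exchanges from 5.03 to 35.6 points (median 17.0), smallest leads from 0.94 to 18.8 points and mean summed TPM from 10.4 to 251. Of their gene sums, 3 were called higher and 3 lower, beside 14.8% and 9.96% of all genes. The log2 fold changes over all 38 ranged from -1.58 to 2.09. The 3 called lower were TRINITY_DN4231_c0_g1 at -0.36 (SE 0.10), TRINITY_DN5373_c0_g1 at -0.91 (SE 0.15) and TRINITY_DN9447_c0_g1 at -0.57 (SE 0.14). In TRINITY_DN5373_c0_g1 the summed TPM was 14.2, 16.9 and 14.6 at 400 ppm and 8.16, 6.52 and 7.72 at 800 ppm, without overlap. Its long contig i12 (4409 bases) was called lower at -1.33 (SE 0.16), and i1 (1906 bases) had -0.17 (SE 0.21). The 3 called higher were TRINITY_DN2313_c0_g1 at 2.09 (SE 0.40), TRINITY_DN4595_c0_g1 and TRINITY_DN5465_c0_g1 at 1.04 (SE 0.20). TRINITY_DN2313_c0_g1 had 15.9, 8.97 and 9.34 TPM at 400 ppm and 62.9, 22.1 and 28.9 TPM at 800 ppm, and its 2 contigs rose together while exchanging 10.6 points.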

How the data were processed

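The authors assembled merged reads with Trinity, kept contigs with long open reading frames, removed redundant ones with CD-hit and estimated expression per contig. The name and version of the aligner were not given in the sources used here. Per library, the deposited tables hold for each contig its lengths, an estimated count without normalization, TPM, FPKM (not used here) and the percent of the gene's TPM, computed by the authors. Members were found from the percent values, levels from TPM. Estimated counts, rounded to whole numbers per contig or summed per gene, entered edgeR 4.0.16 under R 4.3.3 (quasi-likelihood test, TMM, filterByExpr with a minimum count of 10 and a minimum total of 15, CO2 as the only term, Benjamini-Hochberg over all features, FDR 0.05). The standard errors follow from the F statistic. The code was tested on simulated data. P-values set the difference between the groups against the spread of the libraries within them. The number of greenhouses per CO2 level was not given, so the p-values may not cover the spread between greenhouses. The biological coefficient of variation of the gene sums was 27.4%.

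The members and the rules were chosen with earlier results of these data known. Named members are the 10 with the largest exchange, the 5 most abundant, the 5 with the smallest adjusted p of the gene sum, the 3 with the smallest lead and the 3 with the largest difference in length, 20 in all. Others were named after their values were seen. Alternatives were DESeq2 1.42.0, RLE factors, no filter, an offset for effective length, a replicate block, each library left out, and, chosen after seeing the data, library size alone. For the rule itself they were other limits on TPM, contig number and lead, and the order by estimated count. Figures were drawn with matplotlib 3.10.9. Contig sequences were not used here.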

Additional observations from a re-analysis of the deposited data

How the results depend on the processing

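The number of members depends on the rule. It was 58 as reported, 18 with genes of 2 contigs only, 14 with a lead of at least 10 points in every library, and 76 to 116 with 1 library left out, where the condition is looser by construction. It stayed between 51 and 79 under the other limits on TPM and contig number and the order by estimated count. Members with a gene sum called higher numbered 12, 11 to 15 under the other settings with all libraries and 7 to 17 with 1 library left out. Those called lower numbered 5, but 16 with library size only (chosen after seeing the data), 8 with DESeq2, and 1 to 7 with 1 library left out. The cause was not tested. Called main contigs numbered 48, 28 with the replicate block, 43 to 58 with the other settings and 18 to 41 with 1 library left out, where fewer libraries are fitted. The replicate numbers did not pair the libraries, since deviations of same-numbered libraries correlated at 0.20, 0.02 and -0.14. With the replicate block 13 gene sums were called higher and 4 lower. Among the 20 named members, 4 gene sums that were not called changed sign. TRINITY_DN150_c0_g1, at 0.09 on the log2 scale as reported, was -0.17 with library size only and -0.24 with the offset for effective length. TRINITY_DN1639_c0_g1, at 0.06, was -0.20 with library size only and -0.0496 to 0.13 with 1 library left out. TRINITY_DN1316_c0_g1, at 0.01, was -0.26 with library size only, -0.0010 with DESeq2 and -0.0786 to 0.0806 with 1 library left out. TRINITY_DN4726_c0_g1, at -0.19, was -0.42 to 0.31 with 1 library left out. No called gene sum of the 20 changed sign in these settings. With all libraries, 99 of the named members' fits kept sign and side of the threshold, 5 changed sign, 11 passed the threshold newly and 5 lost it, and with 1 library left out the numbers were 93, 5, 4 and 18. Depth limits the leads, of which 277 of 348 were above the counting error.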
